A study of Mus musculus with 28 samples.

Results

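The liver was examined 24 h after mice had been injected with aspirin together with trimetazidine. RNA from 1 treated liver was compared with RNA from 1 liver of a mouse given the solvent, called the vehicle library here. Values are FPKM, the number of sequenced fragments scaled to the length of the gene and to the size of the library. Of the 54501 gene models listed for 24 h, 6825 averaged at least 5 FPKM over both livers, and these are the genes described. The full series holds 28 libraries, among them 1 treated and 1 vehicle muscle at 24 h and 6 treated and 6 vehicle livers at 40 d, which are used below for comparison. Every animal in these groups was a male C57BL/6J mouse of genotype Lepob/Lepob, which makes no functional leptin, overeats and becomes obese. Treated and vehicle mice alike had been given the AMLN diet from 4 weeks of age for 20 weeks, which supplies 40% of energy as fat and 20% as fructose with 2% cholesterol by weight. The diet serves as a model of nonalcoholic steatohepatitis, in which the fatty liver is inflamed and scarred. They stayed on that diet during treatment. Injections were made into the abdominal cavity each day, at 3.0 mg/kg of the first drug and 5.0 mg/kg of the second. The labels do not tell which mouse each 24 h library came from, nor whether the liver and the muscle of a group came from the same animal. With 1 library per group there is no replicate, so no test was made at 24 h, and the effect of the drugs cannot be told apart from the difference between 2 mice.

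Aspirin acetylates and blocks the cyclooxygenases, which make prostaglandins, and trimetazidine inhibits the mitochondrial thiolase that ends each round of fatty acid oxidation. The liver answers inflammatory cytokines with the acute-phase response. Interleukin 6 acts through its receptor on hepatocytes, the transcription factor STAT3 is activated, and hepatocytes then secrete more fibrinogen, serum amyloid A, haptoglobin and the iron hormone hepcidin. Metallothioneins, small proteins that bind zinc and copper, are raised in the liver by metals, glucocorticoids and cytokines.

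Both 24 h libraries had the composition of liver. The treated liver held 16.96 M reads on genes and the vehicle liver 17.34 M, against 16.77 to 18.9 M in the 12 livers at 40 d. Of 15 hepatocyte markers, 14 passed the filter, with a summed level of 42649 FPKM in the treated and 35469 FPKM in the vehicle library, led by albumin (Alb) at 23699 and 20102 FPKM. The 10 skeletal muscle markers summed to 1.0 and 1.8 FPKM, and the 3 kidney markers to 0.0 FPKM in both. Mitochondrial genes took 4.57% of reads in the treated and 4.73% in the vehicle library. Features that collect reads of ribosomal RNA (such as Gm23935, CT010467.1 and Lars2) took 0.092% and 0.358%, while the 40 d livers ranged from 0.067% to 0.243%. In the muscles at 24 h these features took 0.098% in the treated and 0.239% in the vehicle library.

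The difference between treated and vehicle liver was measured as log2((treated FPKM + 1)/(vehicle FPKM + 1)), which understates the change of low genes. In the treated library 53 genes were at least 2-fold higher (0.777% of 6825) and 32 were at least 2-fold lower (0.469%). Protein-coding genes with a symbol made up 37 of the 53 and 13 of the 32, and 8 gene models without a symbol, 2 higher and 6 lower, were counted but are not named. At 1.5-fold these counts were 185 (2.71%) and 100 (1.47%). The median log2 ratio over all 6825 genes was 0.09, and 80% of the genes lay between -0.17 and 0.35. A positive log2 ratio was found for 70.3% of all genes, the share against which positive members of a list are to be read. That median depends on how the libraries are scaled to each other. When each library was scaled to its total reads it became -0.07 with 34.7% of genes positive, 35 genes 2-fold higher and 43 lower, so the share of 2-fold genes that were higher fell from 62.4% to 44.9%. With the median set to 0, 41 were higher and 40 lower. Log2 ratios are therefore best read against 0.09, and differences of that size carry no direction of their own.

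As a measure of how far 2 solvent-treated livers differ, the 6 vehicle livers at 40 d were compared in 15 pairs within their own table. Between 0.83% and 2.84% of genes were at least 2-fold apart in these pairs, with a median of 1.33%. The treated and vehicle livers at 24 h had 1.25% of genes 2-fold apart, and 8 of the 15 vehicle pairs had more. By the number of genes that differed, the 24 h pair was thus no further apart than many pairs of vehicle livers. Gene by gene, the log2 ratio at 24 h was larger than the whole range of the 6 vehicle livers at 40 d for 494 genes that were higher (7.28% of 6790 genes found in both tables) and for 112 that were lower (1.65%). This held for 36 of the 51 genes at least 2-fold higher that the 40 d table lists. It also held for 11 of the 26 that were 2-fold lower. These counts, here and below, use the deposited scaling and were not recounted under another one. Their balance of higher and lower genes thus depends on the scaling. Acat1, for example, was past its range of 0.19 at a log2 ratio of 0.2, but lay at 0.03 scaled to total reads. The 36 include the immunoglobulin segments Igkv4-63, Igkj4 and Iglj1, at 0 FPKM in all 6 vehicle livers, so that any difference exceeds their range. Igkj4 had 2 reads in the vehicle and 8 in the treated liver at 24 h, and Iglj1 had 3 and 6. The vehicle range is a spread between other mice at another time and is used as a scale, not as a test. How many genes would exceed it between 2 livers of the same group was not computed, so being past it is not by itself unusual.

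**Figure D1:**
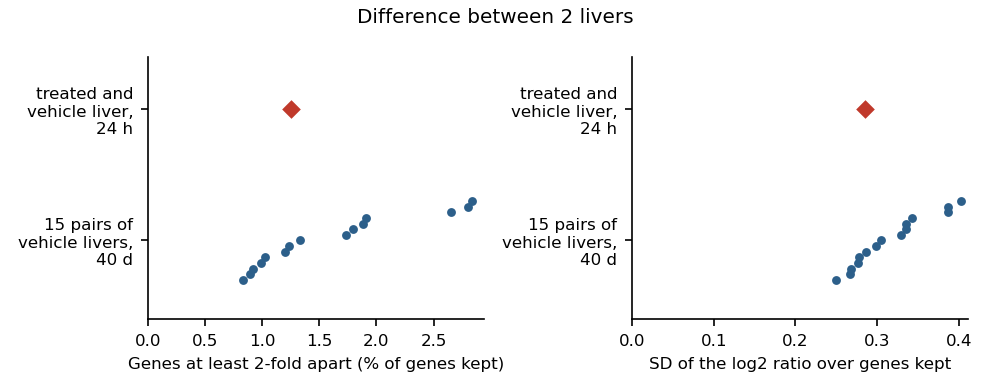
Left, the percentage of genes at least 2-fold apart between 2 livers, and right, the SD of the log2 ratio over genes, for the treated and vehicle liver at 24 h (red diamond) and for the 15 pairs of vehicle livers at 40 d (blue points, spread vertically only for display). The 24 h pair, at 1.25% and an SD of 0.285, lay inside the spread of the vehicle pairs, 0.83% to 2.84% and 0.249 to 0.403.

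**Figure D2:**
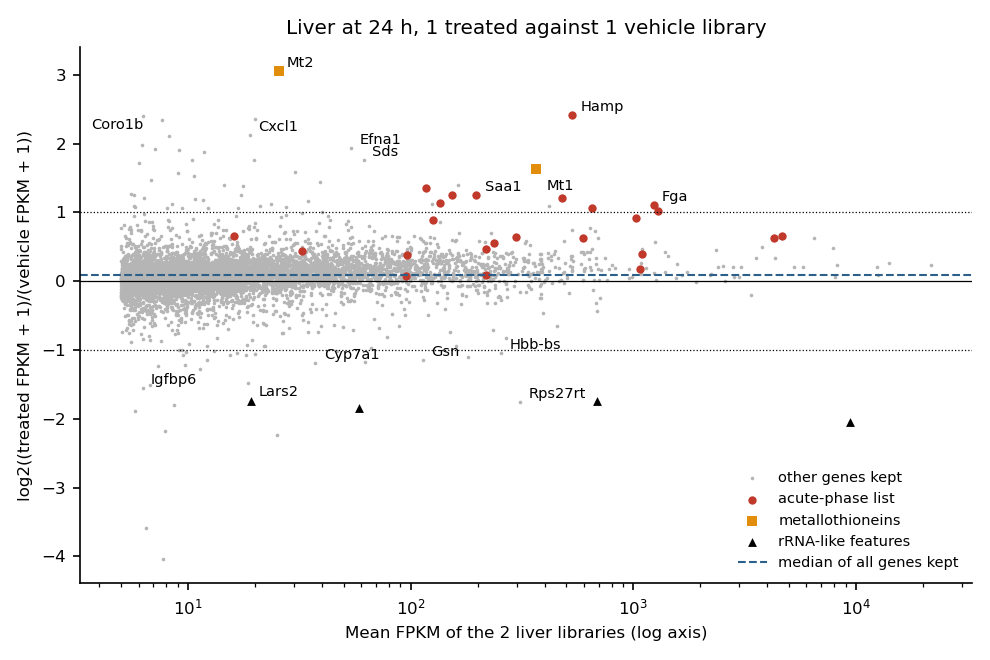
Each point is 1 of the 6825 genes, with the mean FPKM of both livers on the horizontal log axis and the log2 ratio of treated to vehicle on the vertical axis. Dotted lines mark 2-fold, the dashed line the median of 0.09, and the acute-phase genes (red), metallothioneins (orange) and features that collect ribosomal RNA (black) are set apart from the other genes (grey).

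The genes that were highest in the treated liver included stress proteins, an iron hormone and a chemokine. Mt2, a metallothionein on chromosome 8 (GRCm38, 94172664 to 94173568), was at 4.72 FPKM (45 reads) in the vehicle and 46.4 FPKM (384 reads) in the treated liver. This is 9.82-fold, with an exact 95% counting interval of 7.2 to 13.7 that covers sampling of reads only, and a log2 ratio of 3.05, the largest of all 6825 genes. An antisense gene model, Gm45774, overlaps 73.5% of its exonic bases, and with strand use not given in the sources used here, reads of these genes cannot be told apart. Its neighbour Mt1 (94179082 to 94180327) carries no such overlap and was at 178 FPKM in the vehicle and 556 FPKM in the treated liver, 3.12-fold (3.0 to 3.24). The log2 ratio of Mt2 was larger than the vehicle range of 1.34, while that of Mt1, 1.63, was within its vehicle range of 2.33. These 2 ranges are not alike. Mt2 was at only 0.178 to 1.97 FPKM in the vehicle livers at 40 d, where adding 1 FPKM narrows the range. Mt1 was at 63.1 to 322 FPKM there.

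Hamp, which encodes hepcidin, the hormone that blocks iron export from cells, lies on chromosome 7 (30942368 to 30944032). Its level was 167 FPKM in the vehicle and 897 FPKM in the treated liver, 5.37-fold (5.03 to 5.73), and the log2 ratio of 2.42 was past the vehicle range of 1.57. Hamp2, its close copy, was at 10.5 and 18.3 FPKM, and reads of these near-identical genes may be split between them. Other iron genes differed less. Slc39a14, an importer of zinc and iron, was at 17.6 FPKM in the vehicle and 34.5 FPKM in the treated liver, past its vehicle range. Slc40a1, the exporter that hepcidin acts on, was at 17.3 and 17.5 FPKM, and the transferrin receptor Tfrc at 5.64 and 4.59 FPKM. Of the 14 metallothionein and iron genes that passed the filter, 3 were at least 2-fold higher and 0 lower, where 0.777% and 0.469% of all genes were. Their median log2 ratio was 0.29 beside 0.09 for all genes, and 0.14 beside -0.07 scaled to total reads.

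The other genes at the top of the ranking had varied roles. Cxcl1, a chemokine that attracts neutrophils, was at 6.41 FPKM in the vehicle and 31.4 FPKM in the treated liver, 4.9-fold (4.19 to 5.76). Efna1, a membrane ligand of Eph receptors, was at 21.8 and 86.3 FPKM, 3.96-fold (3.62 to 4.33). Both were past their vehicle ranges. Nfil3, a transcription factor of the clock and of immune cells, was at 4.51 and 19.2 FPKM, and Gadd45g, a growth arrest gene, at 8.47 and 31.0 FPKM. Sds, serine dehydratase, which breaks down serine for glucose synthesis, was at 27.6 and 95.5 FPKM, with 29.6% of its exonic bases overlapped by genes on the other strand. Chac1, which degrades glutathione, was at 4.22 and 16.6 FPKM.

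Some genes at both ends of the ranking rest on few reads or on shared sequence. Coro1b, which binds actin, had 71 reads in the vehicle and 448 in the treated liver (1.85 and 13.4 FPKM), but single vehicle livers at 40 d also spread from 1.32 to 7.5 FPKM and treated livers from 0.965 to 13.8 FPKM. Of the 53 genes at least 2-fold higher, 8 were immunoglobulin segments, such as Igkv6-17 with 15 and 74 reads, Igkv4-63 with 11 and 52 reads and Igkj4 with 2 and 8 reads. Such segments differ with the antibody genes of the plasma cells present, and reads can be split among near-identical copies. Mir703 had 4 and 15 reads. At the lower end, Trbd1, a segment of 12 bases, had 3 reads in the vehicle and 0 in the treated liver, which is at the limit that a count of 0 allows, and no fold is given. Rps27rt, a retrocopy of the ribosomal protein gene Rps27, was at 482 FPKM in the vehicle and 142 FPKM in the treated liver while Rps27 itself was at 78.3 and 172 FPKM, so the split of reads between these copies is uncertain. CR974586.3, a clone-based model, had 71 and 24 reads. CT010467.1, at 1055 and 315 FPKM, and Lars2, at 30.0 and 8.3 FPKM, are 2 of the features that collect ribosomal RNA.

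Acute-phase genes were mostly higher in the treated liver. Of 27 listed genes 24 passed the filter, and all 24 had a positive log2 ratio, with a median of 0.66 beside 0.09 for all genes. Scaled to total reads the median was 0.49 and 22 of 24 were positive. At least 2-fold higher were 9 of the 24, where 0.777% of all genes were. At least 1.5-fold higher were 16 (2.71% of all genes), and 15 were higher by more than their vehicle ranges (7.28%). Scaled to total reads, Fga, Fgg, Lrg1 and Lcn2 fell under 2-fold, with log2 ratios of 0.94, 0.86, 0.9 and 0.97. The summed level of the list was 14135 FPKM in the vehicle and 23652 FPKM in the treated liver. Over the 6 vehicle livers at 40 d, the median of the same genes ranged over 0.29 on the log2 scale, less than the 0.57 by which it exceeded the median of all genes at 24 h. Markers of hepatocytes in general, which make most of these proteins, had a median of 0.24 over 14 genes, and the part of hepatocyte content in the difference was not tested.

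The 3 chains of fibrinogen, the clotting protein, lie side by side on chromosome 3. Fga (83026076 to 83033627) was at 783 FPKM in the vehicle and 1693 FPKM in the treated liver, 2.16-fold (2.13 to 2.19). Fgg was at 853 and 1737 FPKM and Fgb at 714 and 1346 FPKM, so that the chains differed by similar factors. All 3 were past their vehicle ranges, which were 0.18 to 0.33. Serum amyloid A, a lipoprotein-bound inflammation marker, was at 117 and 278 FPKM for Saa1, at 66.0 and 170 FPKM for Saa2 and at 87.8 and 163 FPKM for Saa4, with Saa1 and Saa2 close in sequence. Steap4, a metal reductase, was at 90.1 and 217 FPKM, the protease inhibitor Serpina3n at 289 and 665 FPKM, and Lrg1 at 421 and 883 FPKM. Lcn2, which withholds iron from bacteria by binding their siderophores, was at 84.2 and 187 FPKM.

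Within the list the differences were uneven. The scavengers of haemoglobin and haem, Hp at 3637 and 5728 FPKM and Hpx at 3364 and 5187 FPKM, were about as far apart as each other, with log2 ratios of 0.65 and 0.62. The orosomucoids differed less, Orm1 at 945 and 1241 FPKM and Orm2 at 83.2 and 109 FPKM. Crp at 92.6 and 98.1 FPKM, Cp at 212 and 227 FPKM and C3 at 1011 and 1139 FPKM had log2 ratios of 0.08 to 0.17, which is at the level of all genes. The 12 genes listed here as falling in the acute phase did not mirror the block. Their median was 0.23 and none was 1.5-fold apart. Higher by more than their vehicle ranges were 3 (7.28% of all genes), and Ahsg was at 3159 and 4462 FPKM.

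**Figure D3:**
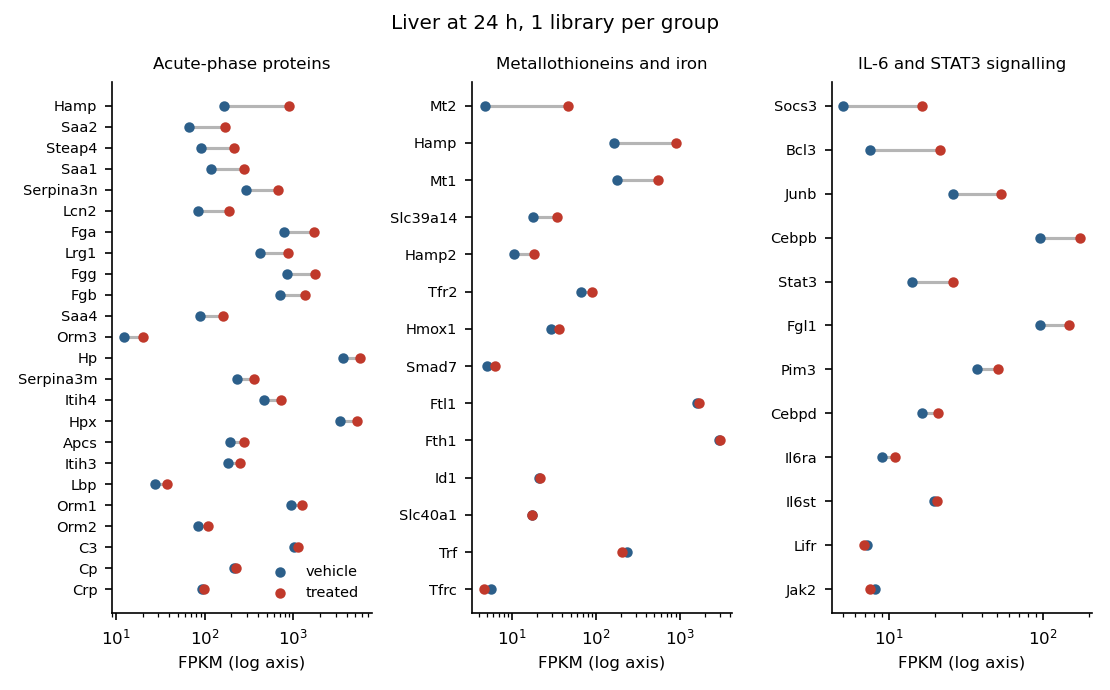
FPKM (horizontal log axis) of every member that passed the filter in 3 gene lists, with the vehicle library in blue and the treated library in red, joined by a line, genes ordered by log2 ratio. In the acute-phase panel all 24 red points lie to the right of the blue ones, from Hamp at 167 and 897 FPKM down to Crp at 92.6 and 98.1 FPKM.

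Among genes of the interleukin 6 and STAT3 pathway the median was above that of all genes. Of 15 listed, 12 passed the filter and 10 had a positive log2 ratio, a share near the 70.3% of all genes. Scaled to total reads 9 were positive, where 34.7% of all genes were. At least 2-fold higher were 3 (0.777% of all genes), and the median was 0.54 (0.37 scaled to total reads). Socs3, the inhibitor that STAT3 induces against itself, was at 5.04 FPKM in the vehicle and 16.4 FPKM in the treated liver, 3.25-fold (2.8 to 3.78). Bcl3, a regulator of NF-kB target genes, was at 7.48 and 21.4 FPKM, Stat3 itself at 14.1 and 26.1 FPKM and the transcription factor Cebpb at 96.0 and 175 FPKM. These 4 genes were past their vehicle ranges. Junb, at 26.2 and 53.7 FPKM, was within its range, and its log2 ratio was 0.85 scaled to total reads, under 2-fold. The receptor chains differed little, Il6ra at 8.98 and 10.9 FPKM and the shared subunit Il6st at 19.6 and 20.4 FPKM. Lists of other inflammatory pathways stayed near all genes, with medians of 0.14 for 9 NF-kB genes, 0.15 for 10 chemokines and 0.11 for 13 interferon response genes. Scaled to total reads the NF-kB and interferon medians were -0.02 and -0.04, so these lists carry no direction.

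Promoters of the genes in the acute-phase, STAT3 and metal lists were searched for a STAT element (TTCNNNGAA, which reads the same on both strands) and for the core of the metal response element (TGCACNC or TGCGCNC, both strands, overlapping matches counted). The windows run from 250 bases before to 50 bases after the start that RefSeq gives (build GRCm38.p6). The STAT element occurs in 8.3% of 32851 promoters of this length. It was in 6 of 20 promoters of the acute-phase list, those of Apcs, Itih4, Fga, Fgb, Hamp and Steap4, and in 1 of 10 promoters of the STAT3 list, that of Socs3. One or the other metal response core occurs in 25.7% of promoters and was in 3 of 8 of the metal list, with 4 matches for Mt2, 3 for Mt1 and 2 for Tfrc. The 6 promoters below belong to the members of these lists with the largest log2 ratios among those whose promoter holds a match. They are written 5′ to 3′ on the strand of the gene, with matches in capitals. A match is a stretch of letters and does not show that a factor binds there.
Mt2: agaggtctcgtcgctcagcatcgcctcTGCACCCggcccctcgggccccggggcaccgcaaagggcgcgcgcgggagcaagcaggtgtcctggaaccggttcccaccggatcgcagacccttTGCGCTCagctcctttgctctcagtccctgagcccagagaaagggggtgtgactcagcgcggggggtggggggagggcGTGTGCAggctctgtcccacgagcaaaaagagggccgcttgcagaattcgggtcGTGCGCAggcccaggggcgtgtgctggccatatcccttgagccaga
Mt1: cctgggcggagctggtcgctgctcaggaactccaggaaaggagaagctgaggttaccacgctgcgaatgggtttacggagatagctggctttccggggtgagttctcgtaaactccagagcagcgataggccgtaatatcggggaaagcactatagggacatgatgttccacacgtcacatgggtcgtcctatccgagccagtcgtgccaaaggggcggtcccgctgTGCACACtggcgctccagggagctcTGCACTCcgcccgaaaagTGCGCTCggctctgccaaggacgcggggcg
Hamp: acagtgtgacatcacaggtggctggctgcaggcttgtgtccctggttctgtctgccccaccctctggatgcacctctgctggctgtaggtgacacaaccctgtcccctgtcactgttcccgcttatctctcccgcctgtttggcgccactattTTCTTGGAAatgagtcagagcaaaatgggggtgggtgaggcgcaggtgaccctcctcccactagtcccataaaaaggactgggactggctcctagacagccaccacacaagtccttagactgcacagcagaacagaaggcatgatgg
Socs3: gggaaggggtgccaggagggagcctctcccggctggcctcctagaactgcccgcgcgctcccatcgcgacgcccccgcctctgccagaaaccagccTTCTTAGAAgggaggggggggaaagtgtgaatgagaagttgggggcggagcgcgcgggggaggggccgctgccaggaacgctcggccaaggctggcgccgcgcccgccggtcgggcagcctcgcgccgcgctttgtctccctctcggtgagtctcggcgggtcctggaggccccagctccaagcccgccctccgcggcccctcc
Fga: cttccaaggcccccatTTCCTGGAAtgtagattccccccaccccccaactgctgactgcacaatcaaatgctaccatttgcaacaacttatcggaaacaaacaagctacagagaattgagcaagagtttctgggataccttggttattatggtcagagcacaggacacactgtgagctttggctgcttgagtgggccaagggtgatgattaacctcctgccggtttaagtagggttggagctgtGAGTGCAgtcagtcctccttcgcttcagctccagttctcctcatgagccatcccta
Steap4: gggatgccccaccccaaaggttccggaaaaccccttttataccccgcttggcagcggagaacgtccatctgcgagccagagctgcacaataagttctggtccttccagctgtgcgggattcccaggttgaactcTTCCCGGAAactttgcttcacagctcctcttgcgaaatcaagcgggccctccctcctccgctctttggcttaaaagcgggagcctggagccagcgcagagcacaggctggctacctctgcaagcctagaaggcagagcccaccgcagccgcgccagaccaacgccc

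In these windows the STAT element started at position -97 for Hamp, -154 for Socs3, -234 for Fga and -116 for Steap4, counted from the annotated start. Mt2 spans chr8:94172368-94172667 and Mt1 chr8:94178839-94179138 on the plus strand, Hamp chr7:30943980-30944279 and Socs3 chr11:117969317-117969616 on the minus strand, and Fga chr3:83025903-83026202 and Steap4 chr5:7960222-7960521 on the plus strand. Promoters without a match include those of Saa1 and Saa2, which were also more than 2-fold higher.

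Genes that respond early to stress or to glucocorticoids were higher in part. Of 22 immediate early genes that passed the filter, 4 were at least 2-fold higher, where 0.777% of all genes were. The median was 0.40, and 0.24 scaled to total reads. Positive log2 ratios were found for 16, a share near the 70.3% of all genes. Scaled to total reads 13 were positive, where 34.7% of all genes were. Btg2, which restrains cell division, was at 14.5 FPKM in the vehicle and 45.7 FPKM in the treated liver, 3.14-fold (2.87 to 3.44), with a vehicle range of only 0.3. Ier3 was at 6.16 and 15.3 FPKM and Jun at 27.1 and 42.1 FPKM, while Fos was under the filter at 2.28 and 2.87 FPKM and Klf2 was lower at 13.5 and 6.69 FPKM. Among 18 glucocorticoid targets the median was 0.48, and 16 were positive (14 scaled to total reads), where 70.3% and 34.7% of all genes were. The list exceeded all genes by 0.38, less than the 0.46 over which its median ranged among vehicle livers. The 4 that were 2-fold higher were Mt2, Mt1, Lcn2 and the estrogen sulfotransferase Sult1e1, at 9.39 and 26.1 FPKM. Among the others, the tyrosine-degrading enzyme Tat was at 399 and 666 FPKM and Fkbp5 at 19.6 and 29.6 FPKM, whereas Tsc22d3 was at 46.7 and 36.9 FPKM, Sgk1 at 18.4 and 14.7 FPKM and the clock gene Per1 at 12.3 and 12.9 FPKM. Igfbp1, a fasting-induced binding protein of insulin-like growth factors, was at 89.4 and 236 FPKM, within its vehicle range of 1.83.

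The clock list as a whole lay at 0.02. Of its 16 members Nfil3 and Bhlhe40, at 36.4 and 65.7 FPKM, were past their vehicle ranges, while Nr1d1 was at 28.3 and 20.8 FPKM and Dbp at 53.9 and 43.6 FPKM. Nr1d1 and Dbp ranged over 3.64 and 3.77 on the log2 scale among the vehicle livers at 40 d. The labels do not state the hour at which tissue was taken.

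Hepatocyte genes known to be active in the periportal zone of the liver lobule were higher in the treated liver. All 14 periportal genes, which serve the hepatocytes next to incoming blood, had positive log2 ratios with a median of 0.62 (12 positive and 0.46 scaled to total reads). Of these 14, 3 were at least 2-fold higher, 8 at least 1.5-fold and 7 past their vehicle ranges, against 0.777%, 2.71% and 7.28% of all genes. Besides Sds, the mitochondrial aldehyde dehydrogenase Aldh1b1 was at 20.9 FPKM in the vehicle and 48.1 FPKM in the treated liver, 2.3-fold (2.11 to 2.51). Sdsl had a log2 ratio of 1.13 (0.98 scaled to total reads). The glutaminase Gls2 was at 29.0 and 56.6 FPKM and the urea cycle enzyme Ass1 at 545 and 842 FPKM. Of 10 pericentral genes, which mark hepatocytes around the central vein, 7 had negative log2 ratios, Cyp7a1 the lowest, with a median of -0.11. That median lay -0.2 from all genes, not past its vehicle range of 0.2, and 0 of the 10 genes were past their own vehicle ranges. Cyp2e1 was at 3622 and 3145 FPKM, Cyp1a2 at 59.3 and 49.1 FPKM, and glutamine synthetase (Glul) was higher at 434 and 494 FPKM. In bulk liver, fewer cells of a zone and less RNA per cell cannot be told apart.

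Nitrogen and fat metabolism shared small positive ratios. All 14 genes of the urea cycle and of nitrogen transport were positive (13 scaled to total reads), with a median of 0.40, led by arginase (Arg1) at 471 and 803 FPKM. Lipogenesis, the synthesis of fatty acids, had 22 of 23 members positive with a median of 0.40 (21 positive and 0.23 scaled to total reads). Scd1, the desaturase that makes oleate, was at 5085 and 7885 FPKM and the synthase Fasn at 55.4 and 80.1 FPKM, and both were within their vehicle ranges. The median of the list ranged over 0.60 among vehicle livers, more than the 0.30 by which it exceeded all genes. Of 19 chaperones of the endoplasmic reticulum all were positive (14 scaled to total reads), with a median of 0.26 that exceeded all genes by 0.17, within the vehicle range of 0.35. They included Manf at 13.0 and 22.2 FPKM and the transcription factor Xbp1 at 59.4 and 94.0 FPKM. Nnmt, which methylates nicotinamide, was at 20.5 and 57.8 FPKM, 2.81-fold (2.54 to 3.12), and Cidea, a lipid droplet protein, at 13.1 and 28.9 FPKM, 2.21-fold (1.89 to 2.59).

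The genes of the drug targets differed little. The thiolase Acaa2 was at 563 FPKM in the vehicle and 705 FPKM in the treated liver, Hadhb at 37.0 and 43.0 FPKM and its partner Hadha at 55.2 and 61.3 FPKM. Over the 8 thiolases and trifunctional protein genes the median was 0.21, and 0.04 scaled to total reads, with Acaa1a at 76.9 and 92.6 FPKM, Acaa1b at 992 and 1186 FPKM and Acat1 at 197 and 226 FPKM. Of 32 fatty acid oxidation genes 31 were positive (25 scaled to total reads), where 70.3% and 34.7% of all genes were, with a median of 0.25. Ehhadh, an enzyme of peroxisomal oxidation, was at 126 and 190 FPKM, and Cpt1a, which admits fatty acids to mitochondria, at 180 and 239 FPKM. The cyclooxygenase genes were under the filter. Ptgs1 had 266 reads (4.22 FPKM) in the vehicle and 281 reads (5.14 FPKM) in the treated liver, and Ptgs2 had 0 and 6 reads. The 8 prostaglandin and leukotriene genes that passed had a median of -0.09, with log2 ratios from -0.31 for Hpgd to 0.36 for Ptges2. These are transcript levels, and both drugs act on proteins.

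**Figure D4:**
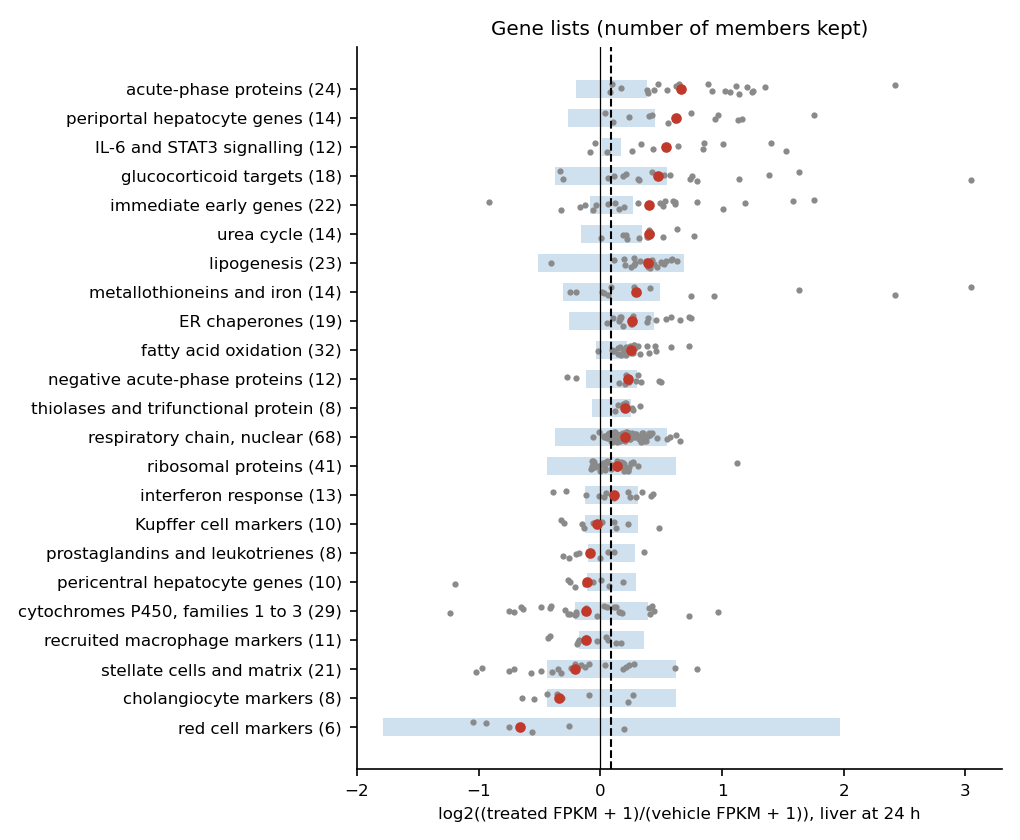
Log2 ratios of treated to vehicle liver at 24 h for the members of 23 gene lists (grey points) with the median of each list (red). Each blue bar reaches above and below the median of all genes (dashed line, 0.09) by the range of that list's median over the 6 vehicle livers at 40 d, and the acute-phase, periportal, STAT3, immediate early, urea cycle and fatty acid oxidation medians lie beyond it.

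Among 55 lists with at least 3 members above the filter, the median exceeded that of all genes by more than this vehicle range in 7, the 6 just named and the neutrophil markers. It lay below by more than the range in 1, insulin signalling, at 0.02 with a range of 0.05. The lists share members, so the 7 are not separate results. Lcn2 is in the acute-phase and neutrophil lists, Junb in the STAT3 and immediate early lists and Ass1 in the periportal and urea cycle lists. Hamp likewise counts in both the acute-phase and the metal list. The neutrophil list had 3 members above the filter of 12, Lcn2, which hepatocytes also make, S100a8 at 7.2 and 12.6 FPKM and S100a9 at 16.2 and 19.7 FPKM.

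Lists of blood, stromal and bile duct genes had negative medians in the treated library, none further from all genes than its median ranged among vehicle livers. The distances from all genes were -0.75, -0.30 and -0.43 and the vehicle ranges 1.88, 0.53 and 0.53. Of 6 red cell genes 5 had negative log2 ratios with a median of -0.66. Hbb-bs, a beta globin, was at 344 FPKM in the vehicle and 166 FPKM in the treated liver and the alpha globin Hba-a1 at 210 and 109 FPKM, within vehicle ranges of 1.94 and 2.27, and reads of near-identical globin copies may be split between them. Of 21 stellate cell and matrix genes 14 were negative with a median of -0.21. The collagen-binding proteoglycans Lum, at 88.6 and 44.7 FPKM, and Dcn, at 141 and 100 FPKM, and the matrix protease Mmp2, at 17.8 and 8.3 FPKM, were lower, whereas fibronectin (Fn1), which hepatocytes make too, was at 87.5 and 135 FPKM. Of 8 cholangiocyte genes 6 were negative with a median of -0.34, including Epcam at 27.6 and 17.3 FPKM and Krt19 at 10.4 and 7.39 FPKM. Kupffer cell markers had a median of -0.02 over 10 genes and recruited macrophage markers -0.12 over 11, with Lyz2 at 787 and 584 FPKM. The endothelial list was at 0.01 over 11 genes, although Lyve1, a marker of sinusoidal endothelium, had a log2 ratio of 1.06.

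Single genes at the lower end of the ranking had other roles. Gsn, the actin-severing protein gelsolin, was at 157 FPKM in the vehicle and 70.7 FPKM in the treated liver, a fold of 0.45 (0.432 to 0.469). Igfbp6, a binding protein of insulin-like growth factor 2, had 177 and 42 reads, at 9.82 and 2.68 FPKM. Fhl2, a LIM domain cofactor, was at 16.5 and 6.21 FPKM, Fam180a at 27.3 and 12.6 FPKM and Pf4, a platelet chemokine, at 13.3 and 5.81 FPKM. Igha, the heavy chain of immunoglobulin A, was at 21.3 and 9.6 FPKM while Ighm, that of immunoglobulin M, was at 122 and 184 FPKM. Malat1, a nuclear noncoding RNA, was at 25.2 and 11.4 FPKM, and mt-Nd4l, a short mitochondrial gene, at 247 and 114 FPKM although the 12 mitochondrial genes had a median of 0.03. The part of cell composition in these differences was not tested.

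Among enzymes of bile acid and drug metabolism, Cyp7a1 and a group of Cyp2c genes were lower. Cyp7a1, the rate-limiting enzyme of bile acid synthesis, was at 52.4 FPKM (3544 reads) in the vehicle and 22.4 FPKM (1316 reads) in the treated liver, a fold of 0.427 (0.401 to 0.455). Its log2 ratio of -1.19 was within the vehicle range of 1.64, and the other 22 bile acid genes above the filter lay between -0.31 and 0.32. Cyp8b1, which acts in the same pathway, was at 98.3 and 102 FPKM. Of 29 cytochrome P450 genes of families 1 to 3 and their reductase, 16 had negative ratios and the median was -0.12. Positive were 13 (7 scaled to total reads), where 70.3% and 34.7% of all genes were. Cyp2c54 was at 10.7 and 3.97 FPKM, Cyp2c37 at 33.5 and 19.5 FPKM and Cyp2c50 at 68.5 and 41.6 FPKM, while Cyp3a13 was at 51.4 and 85.9 FPKM. Cyp2c70 and Cyp2f2 were higher too, with log2 ratios of 0.44 and 0.97. The Cyp2c genes are close copies of each other, and the labels do not state how shared reads were counted.

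The livers at 40 d come from other mice and share no library with the 24 h pair, so they show how the same genes stood after daily treatment. Their labels start with different numbers in the treated and vehicle groups, and what these numbers stand for is not stated. Any difference that they mark cannot be told apart from treatment. With limma's moderated test on log2(FPKM + 1), 11 of 10995 genes were higher (0.1%) and 17 lower (0.155%) in treated livers at an adjusted p under 0.05. Of the 53 genes that were 2-fold higher at 24 h, 43 were tested. A positive log2 fold change was found for 31 and a negative one for 12, where the median of all tested genes was -0.0. By limma 21 of the 43 had an unadjusted p under 0.05, in either direction, where 13.2% of all tested genes did. At an adjusted p under 0.05, 2 passed the test. Nnmt was higher, at 34.4, 41.8 and 65.9 FPKM (lowest, median and highest of 6 vehicle livers) and 64.5, 95.5 and 171 FPKM in the 6 treated livers, with a log2 fold change of 1.25 ± 0.23 (SE) and an adjusted p of 0.0426 (limma). Cidea was lower at 40 d although higher at 24 h. It was at 39.3, 63.0 and 90.4 FPKM in vehicle and 16.8, 24.2 and 38.1 FPKM in treated livers, with no overlap, a log2 fold change of -1.31 ± 0.23 (SE) and a limma adjusted p of 0.0419. The share of all tested genes with no overlap was not computed. Leaving out single livers ended both calls in most cases: the adjusted p ranged from 0.012 to 0.107 for Nnmt and from 0.04 to 0.106 for Cidea. Of the 32 genes that were 2-fold lower at 24 h, 24 were tested at 40 d, 15 had a positive fold change, 3 had an unadjusted p under 0.05, a share near the 13.2% of all tested genes (1455 of 10995), and 0 passed by limma or by voom.

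Acute-phase genes pointed the same way at 40 d without passing the test gene by gene. The log2 fold change was positive for 23 of 24 with a median of 0.94, 22 had an unadjusted p under 0.05 (13.2% of all tested genes), and 0 passed by limma or by voom. Fga was at 594, 715 and 744 FPKM (lowest, median, highest) in vehicle and 760, 1117 and 1934 FPKM in treated livers, with no overlap and a limma adjusted p of 0.175. Saa1 was at 52.0, 84.5 and 104 FPKM in vehicle livers and spread from 44.1 to 2900 FPKM in treated livers, with a median of 861 FPKM. Orm2, at 83.2 and 109 FPKM at 24 h, was at 105, 136 and 162 FPKM in vehicle and 101, 1114 and 1914 FPKM in treated livers at 40 d, a log2 fold change of 2.45. Socs3 did not overlap between the groups, at 2.28 to 3.47 FPKM in vehicle and 4.03 to 12.9 FPKM in treated livers (limma adjusted p 0.107). Mt1 was at 63.1, 133 and 322 FPKM in vehicle and 186, 446 and 1009 FPKM in treated livers, with 6 of 6 above the vehicle mean (limma adjusted p 0.146). How many of all tested genes had no overlap was not computed. Neither was the share with 6 of 6 treated livers on the same side of the vehicle mean.

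Other groups stood differently at 40 d. Hamp was below the vehicle mean in 6 of 6 treated livers, at 423, 682 and 1260 FPKM in vehicle and 111, 445 and 732 FPKM in treated livers, with a log2 fold change of -1.11 ± 0.48 (SE) and a limma adjusted p of 0.351. How many of all tested genes had 6 of 6 on the same side was not computed. The periportal list had a median of 0.62 at 24 h and of -0.16 at 40 d, where 11 of 14 genes were negative. Lipogenesis had medians of 0.40 and -0.65, with 22 of 23 genes negative at 40 d, and fatty acid oxidation 0.25 and -0.22, with 29 of 32 negative. In none of these 3 lists did a gene pass at 40 d by limma or by voom, and 5 of 14, 16 of 23 and 15 of 32 genes had an unadjusted p under 0.05, where 13.2% of all tested genes did. Efna1 and Coro1b had log2 fold changes of 0.27 and -0.01 at 40 d. The difference between the time points was not tested, since 24 h has 1 library per group.

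**Figure D5:**
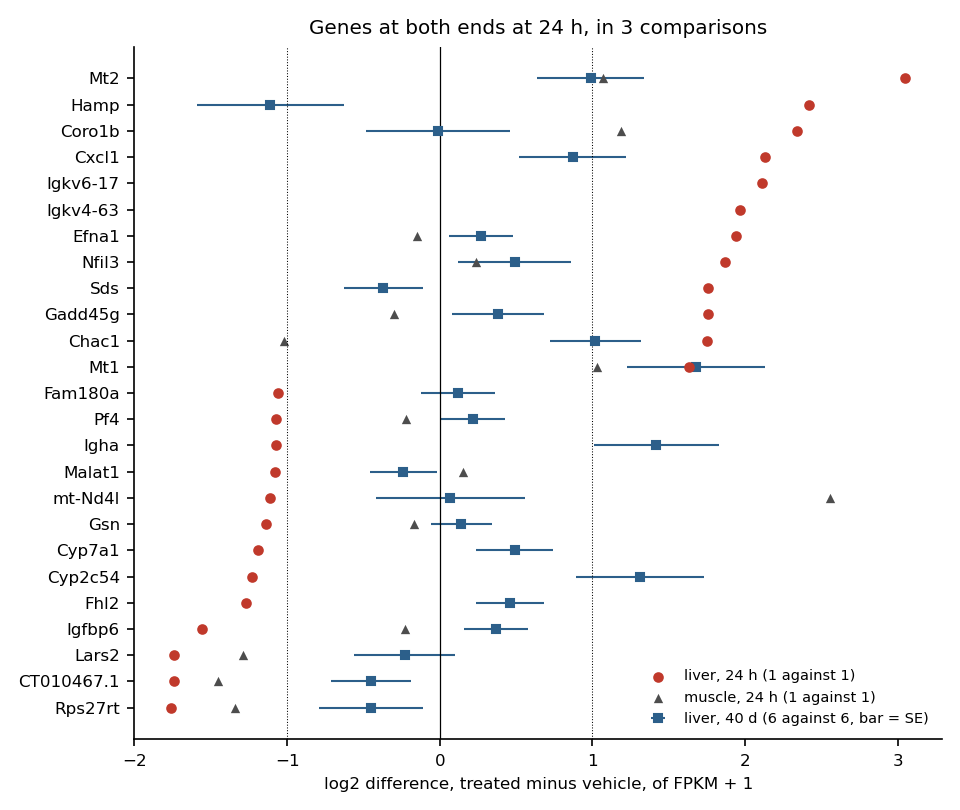
Log2 difference between treated and vehicle (horizontal axis) for genes named from both ends of the 24 h ranking, in liver at 24 h (red), liver at 40 d (blue squares, bars are SE, 6 against 6) and muscle at 24 h (grey triangles, where the mean reaches 5 FPKM). Trbd1, Igkj4, Mir703 and CR974586.3 are left out. Mt2 lies to the right in all 3, Hamp lies at 2.42 and -1.11 in liver, and Lars2 and CT010467.1 lie to the left in liver and muscle at 24 h.

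In muscle at 24 h, again with 1 library per group, 159 of 6763 genes were at least 2-fold higher (2.35%) and 56 lower (0.828%). Of the 53 genes 2-fold higher in liver 26 were above the filter in muscle. There 6 were 2-fold higher too: Mt2, Mt1, Coro1b, Socs3, Cidea and Igkv8-30. In muscle the 8 adipocyte genes, Cidea among them, had a median log2 ratio of 1.17, beside -0.04 for all genes. For 3 B and plasma cell genes it was 3.31. The part of cell composition in the muscle differences was not tested. Mt2 was at 7.12 FPKM in the vehicle and 16.1 FPKM in the treated muscle, Mt1 at 87.6 and 180 FPKM and Socs3 at 4.04 and 10.5 FPKM. Chac1 went the other way, at 62.5 and 30.3 FPKM. Of the 32 genes 2-fold lower in liver 21 were above the filter in muscle, and the 5 that were 2-fold lower there were Lars2, CT010467.1, Gm24270, Gm23935 and Rps27rt, so that 4 of the 5 are features that collect ribosomal RNA. Igkv3-2, mt-Nd4l and Trbd1 were 2-fold higher in the treated muscle. Genes made mainly by hepatocytes are not compared in muscle, where the 5 of them above the filter had a median log2 ratio of -3.42.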

How the data were processed

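Per the labels' protocols, Trizol was used for extraction, a Bioanalyzer for RNA quality and an NEBNext Ultra kit for the libraries. The authors deposited FPKM values per gene, 1 table for 24 h and 1 for each tissue at 40 d. The submitters' processing notes name the builds GRCm38 and mm10, with aligner, counter and strand setting not given in the sources used here. All tables were scaled separately, so levels were compared only within a table. Gene models without a symbol were not joined between tables, since 0 of the 362 numbers found in both had the same coordinates. The 12 muscle columns at 40 d were not used.

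FPKM times gene length was a whole multiple of 1 read for 100% of values (tolerance 0.01), so reads were recovered and the deposited FPKM kept as the main unit. Total reads were 1.204 times the authors' denominator in the treated and 1.069 times in the vehicle liver, which is why scaling to total reads was tried. Ratios used a pseudocount of 1 FPKM and a mean of at least 5 FPKM. Counting intervals are exact conditional binomial intervals (95%) and cover counting error only. At 40 d, genes reaching 1 FPKM in 6 or more of the 12 livers were tested with limma 3.58.1 (trend, two-sided, Benjamini-Hochberg) in R 4.3.3. The labels number the 6 livers of a group but do not state that each is a separate mouse, so p-values measure the spread between these samples. All else ran in Python 3.11.15 with SciPy 1.17.1, pandas 2.3.3, NumPy 2.4.6 and, for figures, matplotlib 3.10.9. Both computations were tested on simulated data.

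Of 1269 entries in 60 gene lists 1268 were found in the table, 3 through RefSeq synonyms. Of 53620 Ensembl genes found in GENCODE M21, 97.1% had the same start, end and strand. The 24 h pair and the lists were chosen with earlier results of these data known. The text names the 15 largest and 15 smallest log2 ratios, leaving out predicted symbols, up to 4 members of each list by size of the log2 ratio, and Ptgs1, Ptgs2 and the thiolase genes. Other list members were named after their values were seen. Of the genes this rule gives, 2 are not reported here. The alternatives were pseudocounts of 0.1 and 5, means of at least 1 and 20 FPKM, centring, TMM, voom, total reads (added after seeing the data) and leaving out each liver at 40 d.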

Additional observations from a re-analysis of the deposited data

Results flagged for a closer look

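Of 52 groups of 6 livers at 40 d, for 26 genes at both ends of the 24 h ranking, 2 held a liver that stood far from the rest by Dixon's criterion, where chance gives about 1 in 20. CT010467.1, a feature that collects ribosomal RNA, was at 169 FPKM in vehicle liver 2_1 and at 367 to 516 FPKM in the others. Cyp2c54 was at 28.0 FPKM in treated liver 5_3 and at 2.62 to 6.58 FPKM in the other treated livers. Of the genes at least 2-fold apart at 24 h, 67 were tested at 40 d. For 6 of these, all 6 treated livers at 40 d lay on the side of the vehicle mean opposite to the 24 h difference. This contrast was not tested, and the share of all tested genes with all 6 treated livers on the same side was not computed. Higher at 24 h and lower at 40 d were Hamp (log2 fold change of -1.11 at 40 d against 2.42 at 24 h), Cidea (-1.31 against 1.09) and Aldh1b1 (-0.40 against 1.16). Lower at 24 h and higher at 40 d were Cyp2c54 (1.31 against -1.23), Igha (1.42 against -1.07) and the pseudogene Gm12411 (0.50 against -2.18).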

How the results depend on the processing

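The number of genes 2-fold apart at 24 h moved with the filter and the scaling. The 53 higher and 32 lower genes became 120 and 120 of 12353 when genes had to average 1 FPKM, 24 and 11 when they had to average 20 FPKM, 36 and 17 with a pseudocount of 5, 59 and 36 with 0.1, 51 and 34 with TMM, 41 and 40 when centred and 35 and 43 when scaled to total reads. No named gene at least 2-fold apart changed sign under the settings tried for it, and neither did the median of a list beyond 0.16 from 0, while smaller list medians could, such as that of 29 genes of the citric acid cycle and pyruvate dehydrogenase (0.16, and -0.01 scaled to total reads). At 40 d limma called 11 genes higher and 17 lower. Without a filter on low values 0 and 0 of 26705 passed, with 2310 at an unadjusted p under 0.05, while voom gave 12 and 17. Leaving out 1 liver at a time gave 0 to 48 higher and 0 to 35 lower: 0 in both directions without vehicle 2_3 or treated 5_3, and 48 and 35 without treated 5_2. No paired analysis was possible because the treated and vehicle groups share no replicate numbers and 24 h has 1 library per group. At 17 M reads, genes such as Igkj4 with 2 and 8 reads or Trbd1 with 3 and 0 are limited by counting.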
